A study of Homo sapiens with 6 samples.

Results

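A set of 87 genes that were well expressed in control MDA-MB-231 cells and strongly lower after panobinostat is described here. A gene entered the set when its mean in the 3 DMSO libraries was at least 10 CPM (the gene's count divided by the plain total of its library, times 1000000) and its mean over panobinostat replicates 1 and 2 was at most 0.25 times that. Of 30051 genes with a row in the table, 9483 reached 10 CPM in DMSO, and 87 of these met the ratio, which left 9396 others. MDA-MB-231, the only line used, consists of human breast cancer cells without hormone receptors or HER2 amplification and of the mesenchymal, claudin-low type. Cells were exposed for 24 h to 50 nM panobinostat (3 libraries, numbered 1, 2 and 4, with the treatment spelled Panobibostat in the sample labels) or to DMSO, the solvent (3 libraries, numbered 1, 2 and 3). The series concerns HER3 targeting beside panobinostat, and its design text calls the repeats independent. The members were thus selected on the counts of panobinostat replicates 1 and 2 and of the DMSO libraries, so these values are given as a description without a test, and panobinostat replicate 4 is shown apart.

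Panobinostat inhibits histone deacetylases, the enzymes that take acetyl groups off histones and many other proteins. Histone acetylation generally accompanies active transcription, yet inhibitors of this class both raise and lower many transcripts. Genes that depend on dense clusters of acetylated enhancers and on acetyl-lysine readers are a known class of lowered genes, and short-lived transcripts show such loss soonest.

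Library totals were 15106148, 5389638 and 6622406 counts in panobinostat replicates 1, 2 and 4, against 11996519, 7113569 and 6514568 counts in DMSO replicates 1, 2 and 3. Panobinostat replicate 4 stood apart from the other panobinostat libraries over all genes. The chi-square per gene was 19.6 between panobinostat replicates 4 and 1, 13.0 between replicates 4 and 2, and 1.57 between replicates 1 and 2, beside 1.252 to 1.763 between DMSO libraries. Of the mesenchymal markers, VIM had a mean of 2965 CPM in panobinostat replicates 1 and 2 and 2534 CPM in DMSO. AXL had 868 CPM in those panobinostat libraries and 1146 CPM in DMSO, and CAV1 had 383 CPM after panobinostat and 653 CPM in DMSO. Some epithelial and luminal markers were present as well, as EPCAM had 10.525 CPM in panobinostat replicates 1 and 2 and 18.3 CPM in DMSO, and CLDN7 had 16.6 CPM after panobinostat and 15.3 CPM in DMSO. CLDN4 had 4.53 CPM in the same panobinostat libraries and 1.22 CPM in DMSO, and GATA3 had 3.18 CPM after panobinostat and 11.7 CPM in DMSO. ESR1, PGR and CLDN3 were under 1 CPM in both groups, and the part of these markers in the members' values was not tested. The epithelial gene CDH1 had 0 counts in the panobinostat libraries and 1 count in the DMSO libraries. The leukocyte gene PTPRC had 2 counts in all panobinostat libraries and 0 in DMSO. In a bulk culture, fewer cells of a kind and less RNA per cell cannot be told apart.

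The 87 genes held 0.131% and 0.133% of all counts in panobinostat replicates 1 and 2 and 0.417% in panobinostat replicate 4, against 0.67%, 0.69% and 0.689% in the DMSO libraries. The ratio of panobinostat replicates 1 and 2 to DMSO ran from 0.0605 to 0.25 with a median of 0.205, so the median member was 4.87-fold lower and the strongest 16.5-fold lower. Of the 87 genes, 41 had a ratio of at most 0.2, 11 of at most 0.15 and 2 of at most 0.1. In the other direction, 53 of the 9483 well-expressed genes were at least 4-fold higher in panobinostat replicates 1 and 2, or 0.559%. By role, 20 were DNA-binding or transcription factors, 13 acted on chromatin or RNA polymerase II, 11 were signalling adaptors, kinases or actin regulators, 10 were surface receptors or made surface glycans, and 6 were secreted. A further 4 belonged to the ubiquitin system, 3 to innate immunity, 2 to the nuclear lamina and replication and 6 to metabolic and mitochondrial enzymes, with 6 other protein-coding genes and 6 that do not code for protein. These role groups were assigned by hand once the members were known.

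Sequences are given for 4 items whose RNA stood among the lowest ratios or lay beside another strongly lower gene. MIR137HG, a non-coding host gene with a ratio of 0.142, carries miR-137, whose mature strand RefSeq (GRCh38.p14) places at chr1:98046091-98046113 on the minus strand. The count measures the polyadenylated host RNA and not the miRNA. Capitals mark the seed, bases 2 to 8.
hsa-miR-137-3p: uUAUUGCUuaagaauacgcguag
Start-site windows of 250 bases before to 50 bases after the annotated start are shown for 3 members with a single start in the RefSeq table. They are CARD8-AS1 (chr19:48255425-48255724, plus strand) and RCSD1 (chr1:167629982-167630281, plus strand), which follow HAS2 and CLCF1 in the order of ratios, and TMPO-AS1 (chr12:98516177-98516476, minus strand), which overlaps TMPO. Capitals mark the CpG dinucleotides, the sites of DNA methylation.
CARD8-AS1: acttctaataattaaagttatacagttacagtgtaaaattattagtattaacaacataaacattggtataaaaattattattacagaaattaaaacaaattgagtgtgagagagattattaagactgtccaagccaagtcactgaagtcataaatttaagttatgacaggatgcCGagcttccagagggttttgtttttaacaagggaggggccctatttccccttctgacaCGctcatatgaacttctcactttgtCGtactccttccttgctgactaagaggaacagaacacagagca
RCSD1: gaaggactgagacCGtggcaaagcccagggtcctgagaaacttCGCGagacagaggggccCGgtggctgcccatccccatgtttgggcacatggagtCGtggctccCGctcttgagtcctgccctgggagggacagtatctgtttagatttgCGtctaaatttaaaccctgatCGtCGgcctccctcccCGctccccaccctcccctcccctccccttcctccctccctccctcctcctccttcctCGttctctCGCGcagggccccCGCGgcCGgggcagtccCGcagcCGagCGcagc
TMPO-AS1: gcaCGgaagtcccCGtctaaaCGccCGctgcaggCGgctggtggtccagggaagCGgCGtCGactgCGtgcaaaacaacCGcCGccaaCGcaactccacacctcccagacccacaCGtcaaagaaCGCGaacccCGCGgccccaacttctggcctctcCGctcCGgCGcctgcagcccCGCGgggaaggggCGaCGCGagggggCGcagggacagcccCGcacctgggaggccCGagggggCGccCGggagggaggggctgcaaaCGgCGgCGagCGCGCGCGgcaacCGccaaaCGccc
The windows of CARD8-AS1, RCSD1 and TMPO-AS1 contained 3, 19 and 39 CpG dinucleotides, so strongly lower members occurred both at a start poor in CpG and at one rich in it. On both strands, TATAAA and CCAAT were searched, and CARD8-AS1 held each of them while RCSD1 and TMPO-AS1 held neither. Over all 35116 promoters in the table, 11.5% held TATAAA and 34.6% held CCAAT. Only 62 of the 87 members matched any window, or 71.3%, so no motif count over the members is given.

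**Figure D1:**
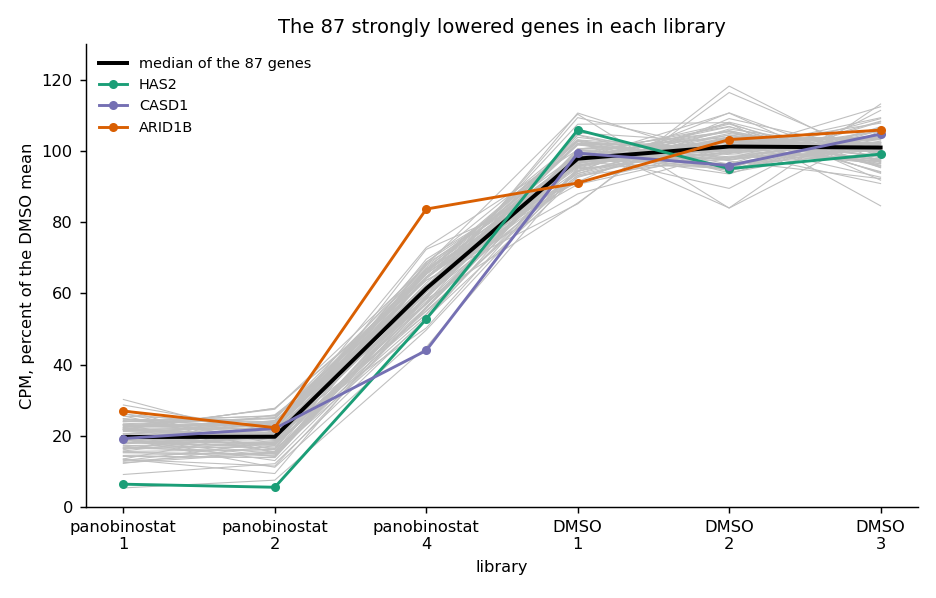
CPM of each of the 87 genes (grey lines) as a percent of its DMSO mean in panobinostat replicates 1, 2 and 4 and DMSO replicates 1, 2 and 3, with the median in black. All 87 lines lie lower in panobinostat replicate 4 than in any DMSO library and higher there than in panobinostat replicates 1 and 2, with CASD1 at the low and ARID1B at the high end.

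Among the secreted factors, CLCF1 had the second lowest ratio of all members. CLCF1, at chr11:67364168-67374177, encodes a cytokine of the IL-6 family that signals through the CNTF receptor. It had 1.06, 1.48 and 8.76 CPM in panobinostat replicates 1, 2 and 4, against 18.5, 19.4 and 20.6 CPM in DMSO replicates 1, 2 and 3. The value in panobinostat replicate 2 rests on 8 counts, with an exact Clopper-Pearson 95% interval of 0.641 to 2.93 CPM that covers counting error only. Panobinostat replicates 1 and 2 held few counts and replicate 4 stood between them and DMSO, without overlap. In all 87 members the 3 panobinostat libraries lay below all DMSO libraries, beside 39.3% of all well-expressed genes. The rule used this contrast, so nothing is read from it, here or for the genes below. LIF, another cytokine of this family, had 12.5, 12.1 and 31.3 CPM in the panobinostat libraries, against 49.0, 51.2 and 51.6 CPM in DMSO. CSF3, which encodes the granulocyte colony-stimulating factor G-CSF, had 90.6, 92.4 and 257 CPM after panobinostat, against 375, 410 and 392 CPM in DMSO. For both genes every panobinostat library lay below every DMSO library, and replicate 4 was the highest of the panobinostat libraries. VEGFC, a growth factor for lymphatic vessels, had 11.5, 11.9 and 42.6 CPM in the panobinostat libraries, against 67.9, 66.4 and 64.3 CPM in DMSO.

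PLAU (chr10:73908832-73917494) encodes urokinase, the secreted protease that turns plasminogen into plasmin. Its level was 82.0, 80.5 and 316 CPM in the panobinostat libraries, against 537, 523 and 549 CPM in DMSO. Per kilobase of transcript, PLAU stood at 202 CPM in DMSO and CSF3 at 234 CPM, well above the median member at 12.02 CPM. MUC5AC, a gel-forming mucin with repeats that can split reads with related mucins, had a ratio of 0.173.

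Genes that act with these factors went both ways. The related genes in this text were picked after their values were seen, and all are tested with edgeR's quasi-likelihood test over the 6 libraries with Benjamini-Hochberg adjustment over 13341 genes. PLAUR, the urokinase receptor, fell by 1.17 ± 0.24 (SE) on the log2 scale (edgeR adjusted p = 0.00477), although the call was lost without the filter on low counts. PLAT, the tissue-type plasminogen activator, rose by 2.12 ± 0.21 (edgeR adjusted p = 0.000631), with 310, 302 and 171 CPM in the panobinostat libraries, against 58.7, 58.6 and 59.6 CPM in DMSO. In this system the activator PLAU and its receptor were lower, while the other activator was higher. Of the receptors for LIF and CLCF1, LIFR rose by 1.48 ± 0.18 (edgeR adjusted p = 0.000904) and the shared chain IL6ST did not pass the test, with a log2 fold change of -0.05 ± 0.05 (edgeR adjusted p = 0.377). CNTFR was too low to test. Beside CSF3, the other colony-stimulating factors CSF2 and CSF1 fell by 0.90 ± 0.18 (edgeR adjusted p = 0.00425) and 0.61 ± 0.10 (edgeR adjusted p = 0.00266).

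**Figure D2:**
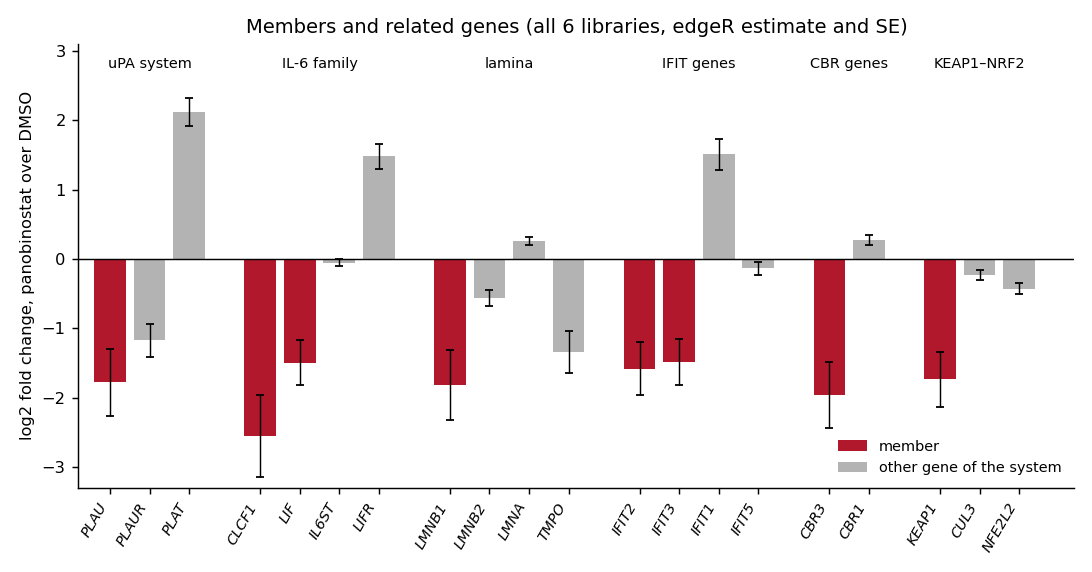
The log2 fold change of panobinostat over DMSO (bars, with SE) from the edgeR fit of all 6 libraries, for members in red and related genes in grey. Bars of members are a description, since the rule used this contrast. PLAT, LIFR, IFIT1, LMNA and CBR1 lie above 0, next to members of the same system that lie below it.

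HAS2 had the lowest ratio of the 87 genes, 0.0605. It encodes the hyaluronan synthase that makes long chains of this matrix polysaccharide at the plasma membrane. HAS2 had 2.78, 2.41 and 22.7 CPM in panobinostat replicates 1, 2 and 4, against 45.4, 40.8 and 42.5 CPM in the DMSO libraries. Panobinostat replicate 4 was closer to the DMSO libraries than to the other panobinostat libraries in fold terms. As in all members, the groups did not overlap. The edgeR call of HAS2 over all libraries was lost without the filter on low counts and without DMSO replicate 1, and DESeq2 did not call it. HAS3, another hyaluronan synthase, was near 2 CPM throughout and did not pass the test, with a log2 fold change of -0.11 ± 0.22 (edgeR adjusted p = 0.727). UGDH, which supplies a sugar precursor, fell by 0.30 ± 0.08 (edgeR adjusted p = 0.0173). This UGDH call was lost when DMSO replicate 1, DMSO replicate 2, panobinostat replicate 1 or panobinostat replicate 2 was dropped (edgeR adjusted p = 0.0734, 0.0560, 0.0653 and 0.0595 in this order). CD44, the main hyaluronan receptor, had a log2 fold change of 0.09 ± 0.05 and did not pass (edgeR adjusted p = 0.135). It was called higher in edgeR fits with a replicate block (adjusted p = 6.18e-06) and without panobinostat replicate 4 (0.00963). The block sets panobinostat replicate 4 alone, so neither estimate draws on that library.

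CASD1, which O-acetylates sialic acids in the Golgi, had 2.91, 3.34 and 6.64 CPM after panobinostat, against 15.004, 14.5 and 15.8 CPM in DMSO. On the linear scale, CASD1 was the member whose panobinostat replicate 4 came closest to the other panobinostat libraries. The role group of HAS2 and CASD1 covers surface receptors and glycan synthesis. It also held the adhesion molecule AMIGO2, the transmembrane semaphorin SEMA4C, the receptors ROBO4 and IL27RA, and NRROS, which holds latent TGF-beta. The glycosyltransferases POGLUT3 and B3GNT7 belonged to it as well. The ratios of these genes lay within the 0.0605 to 0.25 of this role group, whose median was 0.2.

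HMGA2 (chr12:65824460-65966291) led the 20 DNA-binding factors. It encodes an AT-hook chromatin protein of embryonic tissue that is silenced by let-7 miRNAs in adult cells and re-expressed in many cancers. HMGA2 had 20.5, 17.6 and 85.8 CPM in panobinostat replicates 1, 2 and 4, against 148, 156 and 153 CPM in the DMSO libraries. As in all members, the panobinostat libraries lay below all DMSO libraries. Its paralog HMGA1 fell by 0.32 ± 0.07 on the log2 scale (edgeR adjusted p = 0.00608). RPSAP52, a pseudogene transcribed from the opposite strand across the HMGA2 start, fell by 0.94 ± 0.28 (edgeR adjusted p = 0.0204). The RPSAP52 call was lost in edgeR fits that dropped DMSO replicate 1 (adjusted p = 0.0631), DMSO replicate 3 (0.0666), panobinostat replicate 1 (0.0874) or panobinostat replicate 2 (0.0615). IGF2BP3, an oncofetal RNA-binding protein and let-7 target, fell by 0.80 ± 0.17 (edgeR adjusted p = 0.00534).

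ZFX, an X-linked zinc finger activator, had 4.77, 5.01 and 17.2 CPM in the panobinostat libraries, against 32.8, 33.6 and 31.9 CPM in DMSO. BEND3, a repressor of pericentromeric and bivalent chromatin, had 2.78, 3.90 and 12.8 CPM after panobinostat, against 20.9, 22.5 and 20.4 CPM in DMSO. E2F8, an atypical E2F that represses cell cycle genes, had 10.9, 13.5 and 34.4 CPM in panobinostat libraries, against 59.6, 53.6 and 58.0 CPM in DMSO. In these 3 genes, as in all members, the panobinostat libraries were all below DMSO, with replicate 4 highest among them. LIN9, a subunit of the complex that works with MYB and FOXM1 at cell cycle promoters, was no member but fell by 1.30 ± 0.24 (edgeR adjusted p = 0.00346). Zinc finger genes of the group included ZBTB2, ZNF618, ZNF367, ZNF804A, ZNF827, ZNF710, PATZ1, ZIC2 and the PRDM family genes PRDM8 and PRDM10. The remaining factors were the helix-loop-helix protein TFAP4, the leucine zipper proteins CEBPD and ATF5, the BMP effector SMAD1 and the Krüppel-like factor KLF2. Over the 20 factors the ratio ran from 0.125 to 0.248, with a median of 0.199.

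Among 13 regulators of chromatin and RNA polymerase II, INO80D had the lowest ratio, 0.152. INO80D is a subunit of the INO80 nucleosome remodeller and had 2.85, 1.67 and 7.40 CPM in the panobinostat libraries, against 14.2, 14.3 and 16.1 CPM in DMSO. KAT6B, a histone acetyltransferase, had 12.6, 13.7 and 36.7 CPM after panobinostat, against 53.5, 53.6 and 56.5 CPM in DMSO. ARID1B, a subunit of the BAF remodeller, had 14.6, 12.1 and 45.2 CPM in the panobinostat libraries, against 49.1, 55.7 and 57.1 CPM in DMSO. In panobinostat replicate 4, ARID1B came within reach of the lowest DMSO library, closer than any other member, whereas INO80D stayed far below all of them. JADE2 and EPC2 are scaffold subunits of histone acetyltransferase complexes, HCFC1 bridges transcription factors to chromatin enzymes, and PHF19 recruits Polycomb repressive complex. SUV39H1 and PHF2 write and remove methyl marks on histones, and ZMYND11 reads one. MEPCE caps the small RNA that restrains the elongation factor P-TEFb, RPRD2 binds the polymerase tail, and TGFB1I1 is a focal adhesion protein and coactivator. SUV39H2, the paralog of SUV39H1, did not pass the test, with a log2 fold change of -0.29 ± 0.11 (edgeR adjusted p = 0.0527). It was called lower in edgeR fits with DESeq2 size factors (adjusted p = 0.0453), without the filter on low counts (0.0205), with a replicate block (1.90e-06) and without panobinostat replicate 4 (3.39e-05). The estimate with a block also does not draw on panobinostat replicate 4, which stands alone in its block.

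LMNB1 (chr5:126776623-126837020) encodes lamin B1 of the nuclear lamina. LMNB1 had 44.2, 43.0 and 182 CPM in panobinostat replicates 1, 2 and 4, against 307, 314 and 306 CPM in DMSO replicates 1, 2 and 3. The panobinostat libraries were all lower, as in all members, and the DMSO libraries differed little among themselves. The other B-type lamin, LMNB2, fell by 0.56 ± 0.12 on the log2 scale (edgeR adjusted p = 0.00505), and LMNA, which encodes lamins A and C, rose by 0.26 ± 0.06 (edgeR adjusted p = 0.00564). TMPO encodes lamina-associated polypeptides that bind lamins and was just above the ratio limit at 0.278. TMPO had 193, 197 and 459 CPM after panobinostat, against 703, 701 and 703 CPM in DMSO. TMPO fell by 1.34 ± 0.31 (edgeR adjusted p = 0.00742), a call lost without the filter on low counts. GINS3, a subunit of the replicative helicase complex, was the other member in this role group, with a ratio of 0.224.

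Signalling and actin genes included RCSD1, which encodes a protein that binds the actin capping protein. RCSD1 had 3.44, 2.41 and 15.1 CPM in the panobinostat libraries, against 28.2, 24.7 and 23.5 CPM in DMSO. BCAR3, an adaptor that links to BCAR1 and Rap signalling and was named for antiestrogen resistance, had 27.2, 25.8 and 98.5 CPM after panobinostat, against 172, 181 and 176 CPM in DMSO. NHSL1, which binds the Scar/WAVE actin regulator, had 1.59, 2.23 and 8.61 CPM in panobinostat libraries, against 13.3, 10.8 and 14.6 CPM in DMSO. All 3 genes had non-overlapping groups, as all members did. Among them, panobinostat replicate 4 came closest to the lowest DMSO library for NHSL1. The others were the inositol trisphosphate kinase ITPKB, the GTPase-activating protein SYDE1, the kinase HIPK2, MDFIC, LIMD2, the calcium sensor CRACR2A, SH2D4A and ITPRIPL2. The median ratio of the 11 genes was 0.162.

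In the ubiquitin system, KEAP1 is the adaptor that marks the transcription factor NRF2 (NFE2L2) for degradation through CUL3. KEAP1 had 37.0, 35.1 and 111 CPM in the panobinostat libraries, against 195, 200 and 198 CPM in DMSO. CBR3, a carbonyl reductase, had 1.99, 2.41 and 9.06 CPM after panobinostat, against 15.5, 17.6 and 14.6 CPM in DMSO. For both genes, as for all members, every panobinostat library was below every DMSO library. NFE2L2 fell by 0.43 ± 0.08 (edgeR adjusted p = 0.00316). CUL3 fell by 0.23 ± 0.08 (edgeR adjusted p = 0.0297), a call lost when any library but panobinostat replicate 4 was left out (edgeR adjusted p = 0.0639 to 0.102). NRF2 targets went both ways, as HMOX1 rose by 2.04 ± 0.23 (edgeR adjusted p = 0.000749) and SLC7A11 fell by 0.91 ± 0.20 (edgeR adjusted p = 0.00580). CBR1, the neighbouring paralog of CBR3, rose by 0.27 ± 0.08 (edgeR adjusted p = 0.0159). The CBR1 call was lost with DESeq2 (adjusted p = 0.0513), without the filter on low counts (edgeR adjusted p = 0.118), and in edgeR fits that dropped DMSO replicate 1 (adjusted p = 0.0837), DMSO replicate 2 (0.0548) or panobinostat replicate 2 (0.0614). The ligase TRIM8, the scaffold CUL1 and the deubiquitinase STAMBPL1 completed the ubiquitin group, with ratios of 0.192, 0.242 and 0.205. Enzymes beside CBR3 were EPHX4, AFG1L, METAP1D, DUS3L and IBA57, with ratios between 0.194 and 0.25.

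IFIT2 and IFIT3 are adjacent interferon-induced genes on chromosome 10, 18.6 kb apart, whose proteins restrain viral RNA. IFIT2 had 7.88, 7.05 and 22.7 CPM in the panobinostat libraries, against 35.7, 32.2 and 40.1 CPM in DMSO. IFIT3 had 22.4, 18.9 and 53.2 CPM after panobinostat, against 86.9, 84.1 and 85.5 CPM in DMSO. Both, like all members, were lower in every panobinostat library. The next gene of the cluster, IFIT1, went the other way and rose by 1.51 ± 0.22 (edgeR adjusted p = 0.00170), with 66.5, 65.7 and 36.7 CPM in the panobinostat libraries, against 21.4, 18.6 and 18.1 CPM in DMSO. IFIT5 did not pass, with a log2 fold change of -0.13 ± 0.10 (edgeR adjusted p = 0.260), but was called lower without panobinostat replicate 4 (edgeR adjusted p = 0.0155). IFIT genes are paralogs, so reads they share are uncertain. The interferon-induced OASL and ISG15 rose by 2.25 ± 0.19 (edgeR adjusted p = 0.000573) and 1.75 ± 0.18 (edgeR adjusted p = 0.000655). CGAS, the sensor of cytosolic DNA, was a member with a ratio of 0.220, and STING1, which acts after it, fell by 0.98 ± 0.23 (edgeR adjusted p = 0.00793).

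Of the 6 other protein-coding members, AP5S1, an adaptor complex subunit, had 5.23, 6.12 and 20.5 CPM in the panobinostat libraries, against 28.3, 29.2 and 27.0 CPM in DMSO. TUSC1 had 4.10, 2.78 and 10.9 CPM after panobinostat, against 15.004, 15.9 and 15.96 CPM in DMSO. Both had a panobinostat replicate 4 nearer to DMSO than most members. PBDC1, ARMC5, ARMCX4 and the myelin gene MBP made up the rest.

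Members without a protein product numbered 6 of 87, or 6.9%, beside 293 of the 9396 other well-expressed genes, or 3.12%. CARD8-AS1 had 1.26, 1.67 and 7.25 CPM in panobinostat replicates 1, 2 and 4, against 12.7, 14.2 and 14.1 CPM in DMSO. MIR137HG, whose seed is shown above, had 4.63, 5.57 and 23.9 CPM after panobinostat, against 35.3, 38.7 and 33.6 CPM in DMSO. RGMB-AS1 had 4.57, 4.27 and 17.2 CPM in the panobinostat libraries, against 21.7, 24.0 and 25.6 CPM in DMSO. None of these overlapped between groups, as no member did, and RGMB-AS1 stood high in panobinostat replicate 4 relative to DMSO. TMPO-AS1 and TRIM8-DT are the other non-coding RNAs, and ENSG00000256663 is a processed pseudogene without a symbol in the tables used, whose reads may belong to its parent gene. The protein-coding partners were lower as well: CARD8, an inflammasome protein, fell by 0.73 ± 0.14 (edgeR adjusted p = 0.00428) and RGMB, a BMP co-receptor, by 0.66 ± 0.13 (edgeR adjusted p = 0.00479). DPYD, a pyrimidine-degrading enzyme whose span overlaps MIR137HG on the same strand, rose by 0.52 ± 0.10 (edgeR adjusted p = 0.00406). The library kit marks strand, but whether the counting used it was not given in the sources used here. Reads of an antisense RNA and of its partner therefore cannot be told apart with certainty.

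**Figure D3:**
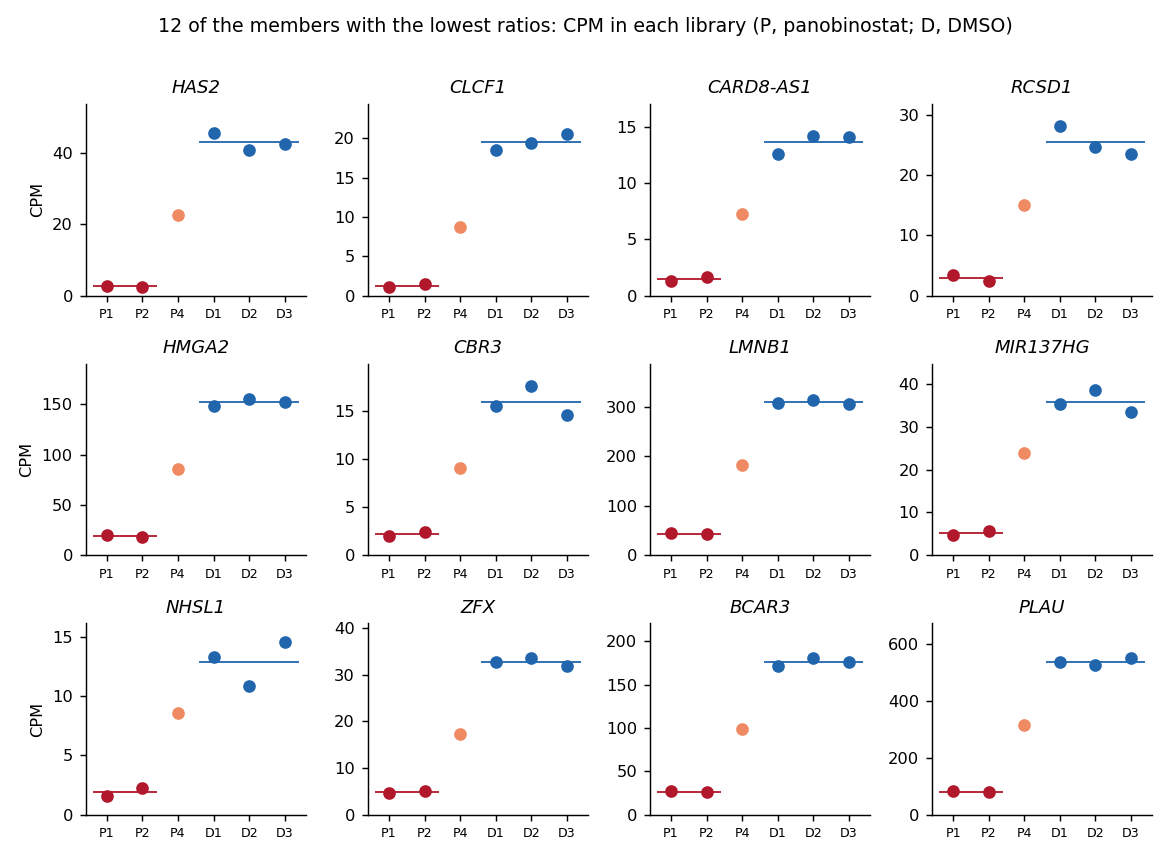
CPM in each library for 12 of the members with the lowest ratios, with panobinostat replicates 1, 2 and 4 (P1, P2, P4) left of DMSO replicates 1, 2 and 3 (D1, D2, D3), each panel with its own axis from 0. Horizontal lines give the mean of P1 and P2 and the mean of DMSO, and P4 lies between them in all 12 panels.

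Panobinostat replicate 4 played no part in the choice of members, but it was known beforehand to lie about midway between the groups over all genes, and it is compared with the same DMSO libraries that the rule used. All 87 genes were lower in panobinostat replicate 4 than in every DMSO library, beside 43.4% of all well-expressed genes. All 87 were also above both other panobinostat libraries, beside 4394 of the 9396 others, or 46.8%. The rule chose the members for low values in those libraries, so nothing is read from this. With all 3 panobinostat libraries, all 87 lay below all DMSO libraries, beside 39.3% of well-expressed genes, and nothing is read from this since the rule used that contrast. The ratio of panobinostat replicate 4 to DMSO ran from 0.440 to 0.837 with a median of 0.614 and quartiles of 0.581 and 0.654. It was between 0.5 and 0.7 in 81 of 87 members and in 355 of the 9396 others, or 3.78%. The median log2 difference was -0.69 over the members and -0.01 over the other well-expressed genes.

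On a linear scale with DMSO at 0% and the mean of panobinostat replicates 1 and 2 at 100%, panobinostat replicate 4 lay at a median of 48.3% for the members, with quartiles of 44.3% and 51.8%. For the 695 other well-expressed genes at or below a ratio of 0.5, the median was 48.7% with quartiles of 43.6% and 54.1%. Panobinostat replicate 4 thus took about the same place between the groups for members as for less strongly lower genes. CASD1 was farthest towards the other panobinostat libraries at 70.6%, and ARID1B nearest to DMSO at 21.7%. In edgeR with panobinostat replicate 4 against the 3 DMSO libraries, where the lone library is assumed to vary like DMSO, all 87 members were called lower at an adjusted p under 0.05, beside 19.4% of 13786 tested genes called lower and 20.7% called higher. DESeq2 called 68 of the 87 lower in the same comparison and lost 19. Among well-expressed genes the share called lower was 26.9% and the share called higher 20.3%. The shares of tested and of well-expressed genes are from edgeR, and no such share is given for DESeq2. Panobinostat replicate 4 was known to lie about midway and the DMSO libraries entered the rule, so nothing is read from these calls. The members' log2 fold changes in the edgeR fit ran from -1.21 to -0.27 with a median of -0.73, beside -0.01 over all tested genes.

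The lowest ratios of panobinostat replicate 4 belonged to CASD1 (0.440), CLCF1 (0.449), INO80D (0.497), ZNF804A (0.503) and ZFX (0.525). CASD1 fell by 1.21 ± 0.21 on the log2 scale in this library, and CLCF1 fell by 1.17 ± 0.19. Both were past the middle between the groups. The highest ratios belonged to ARID1B (0.837), AP5S1 (0.729), RGMB-AS1 (0.724), TUSC1 (0.696) and LIMD2 (0.689). ARID1B fell by 0.27 ± 0.10, and RGMB-AS1 fell by 0.48 ± 0.15. These genes were nearer to DMSO but still below it. Among genes with higher counts, PLAU fell by 0.79 ± 0.05, LMNB1 fell by 0.79 ± 0.06 and HMGA2 fell by 0.85 ± 0.07. Genes with more counts thus had smaller errors, which hold no spread between panobinostat libraries. The ARID1B call was lost in edgeR fits that dropped DMSO replicate 2 (adjusted p = 0.0577) or DMSO replicate 3 (0.0826) and with plain library sizes (edgeR adjusted p = 0.0579), and the AFG1L call without DMSO replicate 1 (edgeR adjusted p = 0.0837). With DESeq2 the calls of ARID1B (adjusted p = 0.305), AFG1L (0.366) and RGMB-AS1 (0.212) were lost. A ratio of panobinostat replicate 4 at or below 0.5 was seen in 3 of the 87 members and in 3 of the 9396 other genes.

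**Figure D4:**
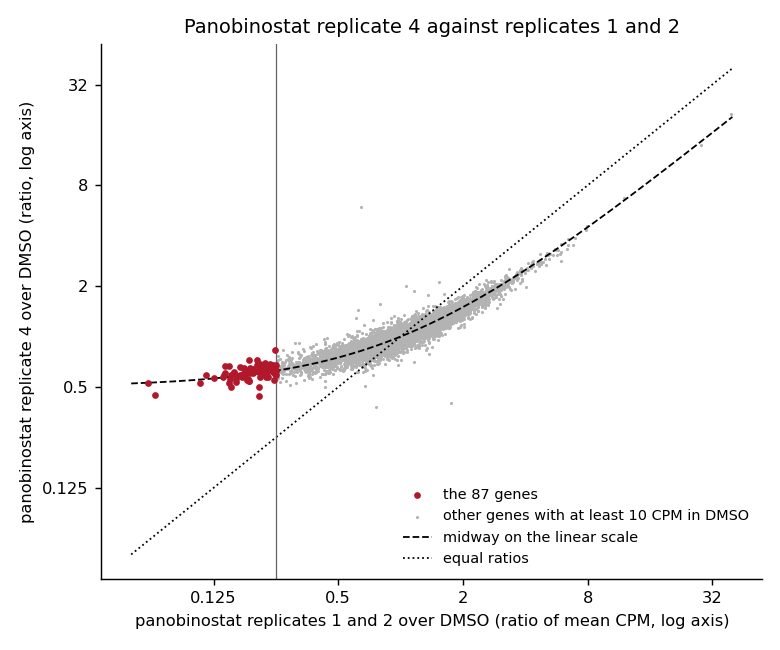
Ratio to the DMSO mean in panobinostat replicate 4 (vertical, log axis) against that in panobinostat replicates 1 and 2 (horizontal, log axis), for the 87 genes in red and 9396 other well-expressed genes in grey. The vertical line is the ratio limit of 0.25, and the members follow the dashed line of a position midway on the linear scale, as the grey genes do.

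In the fit of all 6 libraries, all 87 members were called lower at an edgeR adjusted p under 0.05, beside 28.6% of 13341 tested genes called lower and 30.2% called higher. The rule used this contrast, so nothing is read from the count. Among well-expressed genes 35.7% were called lower and 27.2% higher. With panobinostat replicates 1 and 2 alone against DMSO, the shares of 13746 tested genes were 36.9% lower and 37.6% higher. In the authors' deposited table, all 87 members had a log2 fold change below 0, from -2.28 to -1.06 with a median of -1.43, beside 5132 of 9396 other well-expressed genes, or 54.6%, below 0. The authors' deposited table gave an adjusted p under 0.05 to all 86 members that had one, beside 5560 of 9392 others, or 59.2%. HAS2, the member with the lowest ratio, had no adjusted p there. The authors' deposited table compares the same treatments, the libraries used by the rule included, so nothing is read from its values either.

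Of 29 gene lists drawn up for pathways and families, 13 held at least 1 member and 16 held none. In all, 29 members were on a list and 58 were on none. The lists are not complete and differ from the role groups, as STAMBPL1 and CUL1 of the ubiquitin role group were on none. Counts below are of edgeR calls over the 6 libraries, beside 3821 lower and 4032 higher of 13341 tested genes with a median log2 fold change of 0.00. Chromatin regulators had 59 of 99 lower and 16 higher, with a median of -0.37, and the members INO80D, KAT6B and ARID1B among them. E2F, MYB and FOX cell cycle factors had 12 of 20 lower and 2 higher, with a median of -0.25. Lists without a member also had more lower than higher genes, as helicases and splicing regulators had 89 of 128 lower and 9 higher, with a median of -0.42. Homologous recombination and Fanconi genes had 23 of 35 lower and 4 higher, with a median of -0.48. Zinc finger genes had 120 of 498 lower and 115 higher, with 7 members and a median of 0.02. Ubiquitin ligases and deubiquitinases had 72 of 262 lower and 93 higher, with a median of 0.04 and TRIM8 as the member, and actin regulators had 15 of 53 lower and 26 higher, with a median of 0.10. The shares of lower genes in these 3 lists were near or below the 28.6% of all tested genes.

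Secreted cytokines, chemokines and growth factors had 19 of 52 lower and 25 higher, with a median of 0.29 and the members CLCF1, VEGFC, CSF3 and LIF. Among the 39 well-expressed genes of this list, 19 were lower and 16 higher with a median of -0.16, beside 3389 lower and 2578 higher of all 9483 well-expressed genes with a median of -0.06. IL11, of the IL-6 family, fell by 0.58 ± 0.15 (edgeR adjusted p = 0.0108), while IL6 itself rose by 0.81 ± 0.25 (edgeR adjusted p = 0.0253). The IL6 call was lost in edgeR fits that dropped DMSO replicate 2 (adjusted p = 0.0836), DMSO replicate 3 (0.0590), panobinostat replicate 1 (0.0954) or panobinostat replicate 2 (0.0785). Cell-surface proteases and inhibitors had 10 of 29 lower and 12 higher, with a median of 0.25, and 10 of 20 lower and 7 higher among the well-expressed ones, with a median of -0.10. MMP14, the membrane-type matrix metalloprotease, came near the ratio limit at 0.312 and fell by 1.26 ± 0.27 (edgeR adjusted p = 0.00553), a call lost without the filter on low counts. The lists for NRF2 targets and carbonyl reductases (6 of 26 lower, 11 higher, median 0.19), interferon genes (8 of 24 lower, 7 higher, median -0.10) and hyaluronan and matrix synthesis (11 of 33 lower, 12 higher, median -0.05) were mixed. So were let-7 target and oncofetal genes (5 of 16 lower, 5 higher, median -0.03). TGF-beta receptors and SMADs had 10 of 27 lower and 5 higher, with a median of -0.05. Long non-coding genes had 70 of 337 lower and 84 higher with a median of 0.01, but 24 of 56 lower and 8 higher among the well-expressed ones, with a median of -0.32.

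**Figure D5:**
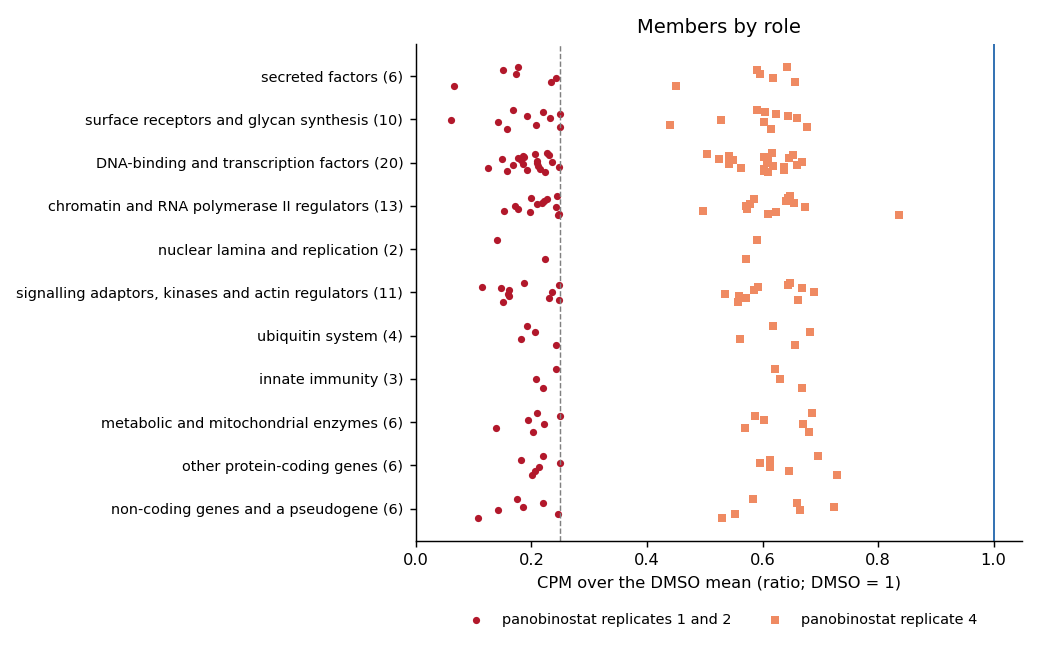
Ratio to the DMSO mean of each member, by role group with its number of genes, for panobinostat replicates 1 and 2 (circles) and panobinostat replicate 4 (squares), with DMSO at 1 (solid line) and the limit of 0.25 (dashed line). In every role group the squares lie between the circles and DMSO, and ARID1B is the square nearest to DMSO.

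The members differed little from other well-expressed genes in transcript length, with medians of 3.65 kb for the members and 3.66 kb for the others, and in the length of the 3′ untranslated region, with medians of 1.56 kb for the members and 1.59 kb for the others. They had fewer exons in the longest annotated coding transcript (any transcript for genes without one), with a median of 6 for members, against 9 for the others. The median genomic span was 27.4 kb for members and 35.5 kb for the others, but the members' upper quartile was longer, 103 kb against 82.0 kb. Among protein-coding genes alone, the median span was 32.4 kb for members and 36.6 kb for the others. The median GC content of the transcript was 52.4% for members, 47.5% for other well-expressed genes and 47.2% for the 695 other genes at or below a ratio of 0.5. These are descriptions without a test, and GC content also bears on how reads are sampled. The members were spread over every autosome and the X chromosome. Chromosome 10 held 8, or 9.2%, beside 4.14% of the other well-expressed genes, and the X chromosome 5, or 5.75%, beside 3.27%. Chromosomes 1 and 19 held 7 each, or 8.05%, beside 10.3% and 6.38% of the others.

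Neighbours that are members themselves are lower by the rule and were left out of the following shares. Next to the members, 58 of 167 tested neighbours were called lower by edgeR, or 34.7%, beside 28.3% of the neighbours of other well-expressed genes. Where the neighbour overlapped the member, 12 of 24 were lower, or 50.0%, beside 27.8% for the others. Where it lay within 5 kb without overlap, 4 of 14 were lower, or 28.6%, beside 28.2%. Overlapping genes can share reads in the counting, and their part in these shares was not tested. Adjacent members formed 3 pairs: IFIT2 with IFIT3, ARMC5 with TGFB1I1 at a distance of 4.42 kb, and TRIM8 with the overlapping TRIM8-DT. ARMC5 had 3.91, 3.53 and 11.6 CPM in the panobinostat libraries, against 17.4, 17.2 and 19.5 CPM in DMSO. TGFB1I1 had 9.33, 10.0 and 31.3 CPM after panobinostat, against 45.8, 52.4 and 47.3 CPM in DMSO. TRIM8 had 62.2, 72.5 and 216 CPM after panobinostat, against 343, 374 and 334 CPM in DMSO. In each pair both genes, like all members, were lower in every panobinostat library. ATF5 overlapped NUP62, a nucleoporin gene that fell by 1.01 ± 0.18 (edgeR adjusted p = 0.00316).

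Just inside the ratio limit were MBP and POGLUT3, both at 0.249, and B3GNT7 and IBA57 at 0.2495 and 0.2499. Just outside were HMGB2 at 0.2505, KCNQ5 at 0.252, FAIM at 0.252 and USP13 at 0.252. At the DMSO limit the lowest members were AFG1L with a DMSO mean of 10.9 CPM, NHSL1 with 12.9 CPM and SMAD1 with 13.3 CPM. Below it, ENSG00000283445 with 9.53 CPM, CYP3A5 with 9.10 CPM and FBXL19-AS1 with 8.997 CPM met the ratio and not the level. The limits thus fell in a continuous range of values. Counts were low in part of the set, with 19 of 87 members under 20 counts in panobinostat replicate 2.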

How the data were processed

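Raw gene counts, unnormalised, are the main content of the table the authors deposited; its name credits featureCounts. Per the submitters' processing notes, FastQC and the build GRCh38.p14 were used, and per the labels' protocols the mRNA kit was stranded. The aligner, annotation and use of strand are not given in those sources. The deposited table also holds the authors' log2 fold changes and adjusted p-values, matched here by gene identifier.

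CPM were computed with plain column totals. Counts were tested in edgeR 4.0.16 (R 4.3.3; quasi-likelihood, robust, TMM, filterByExpr, treatment only), with calls at an adjusted p under 0.05 after Benjamini-Hochberg. P-values set a change against the spread within groups, which for panobinostat replicate 4 against DMSO came from the DMSO libraries only. The biological coefficient of variation, edgeR's measure of the spread within groups, was 0.112 with all libraries and 0.0283 without panobinostat replicate 4. Changes of the related genes include that library, unlike the members' ratios. The log2 fold change of TMPO was -1.34 with it and -1.89 without it, and that of CBR1 was 0.270 with it and 0.266 without it. Each SE follows from the estimate divided by the root of F. The code was tested on simulated counts in which all panobinostat libraries had the same fold change. The midway place of panobinostat replicate 4 was thus not covered by that test. Log2 differences of panobinostat replicate 4 used a pseudocount of 0.5 CPM. Gene type, length, exons and GC are from GENCODE, and coordinates and sequences from RefSeq GRCh38.p14. Intervals are exact Clopper-Pearson at 95%.

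The members, the gene lists, the related genes and the named-gene rule were chosen with earlier results of these data known. That rule names the 15 lowest ratios, the 5 lowest and 5 highest ratios of replicate 4, up to 4 members of each list, adjacent members and genes at the limits. Some genes that it names are not reported here. Alternatives were other limits, scaling, no filter, DESeq2 1.42.0, a replicate block and leaving out each library.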

Additional observations from a re-analysis of the deposited data

How the results depend on the processing

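The number of members was 41 with a ratio limit of 0.2, 154 with a limit of 0.3, 3 when all 3 panobinostat libraries entered the rule, and 56 when the higher of panobinostat replicates 1 and 2 was set against the lowest DMSO library, an alternative chosen after seeing the data. Leaving out 1 library gave 86 to 92 members. The median log2 difference of panobinostat replicate 4 minus DMSO was -0.75 and -0.64 with the ratio limits of 0.2 and 0.3, and -0.71 to -0.68 without 1 DMSO library. Of the 87 members, 24 were called lower over all libraries without the filter on low counts, 83 by DESeq2, and 79 to 87 when 1 library was left out. Matching shares of all tested genes without the filter and with DESeq2 are not given here. For panobinostat replicate 4 against DMSO, DESeq2 called 68 members lower, and 86 were called when 1 DMSO library was left out. Over all genes, leaving out 1 library gave 2624 to 5078 lower and 3106 to 5171 higher calls, with the highest of each without panobinostat replicate 4. For 37 named members, 348 of the alternative values kept their call, 59 lost it and 0 reversed. Replicate numbers 1 and 2 occur in both groups, but their deviations correlated at 0.052 and 0.008 only, so the numbers are not shown to pair the libraries. With a replicate block, DMSO replicate 3 and panobinostat replicate 4 each stand alone in a block, so that fit rests on replicates 1 and 2 of each group. It left 87 members called lower and gave 4950 lower and 5031 higher calls over all genes. Depth limits the lowest members, since panobinostat replicate 2 held 8 to 498 counts of a member.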
